A study of Homo sapiens with 14 samples.

Results

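The nucleoporin genes were followed through a metabolic RNA labelling study in HEK293T cells, an immortalized line derived from human embryonic kidney. Members were the protein-coding genes whose symbol is NUP followed by a number, with or without a final L, together with TPR, RANBP2, POM121, POM121C, AAAS, SEC13, SEH1L, NDC1, RAE1 and AHCTF1. The rule found 30 genes among 57820 annotated genes, of which 20345 were protein-coding, and it used no measured value. The cells were given 4-thiouridine (s4U), a uridine analog that enters newly made RNA, and acrylonitrile converts the incorporated s4U so that it is read as a mismatch to the genome. In the conversion experiment, s4U-acrylonitrile-RNA came from cells grown with s4U for 24 h and treated with acrylonitrile, s4U-RNA had the s4U without acrylonitrile, Con-acrylonitrile-RNA had acrylonitrile without s4U, and Con-RNA had neither. The protocol gives 50 µM s4U for this experiment, whereas the treatment label of s4U-acrylonitrile-RNA gives 500 µM, so that the dose of that group was uncertain. In the second experiment, PDP-0-RNA, PDP-4-RNA and PDP-8-RNA came from cells given 0, 4 or 8 µM of PDP, a pyridostatin analog that binds G-quadruplexes, for 20 min before 1 h of 500 µM s4U. All 3 of these groups were labelled and all were treated with acrylonitrile. Each of the 7 groups held 2 libraries of polyadenylated RNA, and the labels do not say that they came from separate cultures, so that p-values measure only the spread between these libraries.

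The nuclear pore complex is the channel through which proteins and RNA pass between nucleus and cytoplasm. An outer ring made by the Y complex and an inner ring anchored by transmembrane nucleoporins form its scaffold, FG-repeat proteins fill the central channel, and filaments reach into the cytoplasm and, as the basket, into the nucleus. Many scaffold proteins are very long-lived in cells that do not divide, which sets apart the life of the protein and that of its mRNA. By these roles the members were 9 genes of the Y complex, NUP98, which encodes both an outer ring protein and an FG protein, 5 of the inner ring, 2 of the central channel, 5 transmembrane, 5 of the cytoplasmic face and 3 of the nuclear basket.

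Because PDP is a G-quadruplex ligand, the promoters of members picked by their results with PDP are shown. These were NUP62, NUP210, POM121 and POM121C, whose labelled RNA was lower under the authors' library sizes, and NUP205, whose total RNA rose. With GC content in the fit, only NUP62 of these genes with lower labelled RNA kept its call at 8 µM. The sequences are from RefSeq on GRCh38.p14, 250 bases before to 50 bases after the annotated start, 5′ to 3′ on the strand of the gene. Capitals mark a match to a motif of 4 runs of at least 3 G, or on the opposite strand 4 runs of at least 3 C, parted by 1 to 7 bases of any kind, that is GGGNGGGNGGGNGGG with 1 to 7 N at each place, or the same written in C.
NUP62: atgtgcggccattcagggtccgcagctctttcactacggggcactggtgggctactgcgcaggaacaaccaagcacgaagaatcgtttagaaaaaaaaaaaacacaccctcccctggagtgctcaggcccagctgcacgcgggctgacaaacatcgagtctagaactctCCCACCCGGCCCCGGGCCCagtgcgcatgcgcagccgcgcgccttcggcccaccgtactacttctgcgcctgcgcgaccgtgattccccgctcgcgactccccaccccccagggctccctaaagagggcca
NUP210: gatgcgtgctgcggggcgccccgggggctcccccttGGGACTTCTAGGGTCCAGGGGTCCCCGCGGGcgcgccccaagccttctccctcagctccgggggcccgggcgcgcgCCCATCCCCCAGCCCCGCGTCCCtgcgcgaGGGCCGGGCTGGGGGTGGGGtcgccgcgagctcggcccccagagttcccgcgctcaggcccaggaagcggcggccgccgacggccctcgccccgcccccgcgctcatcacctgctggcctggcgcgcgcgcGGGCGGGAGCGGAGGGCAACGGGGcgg
POM121: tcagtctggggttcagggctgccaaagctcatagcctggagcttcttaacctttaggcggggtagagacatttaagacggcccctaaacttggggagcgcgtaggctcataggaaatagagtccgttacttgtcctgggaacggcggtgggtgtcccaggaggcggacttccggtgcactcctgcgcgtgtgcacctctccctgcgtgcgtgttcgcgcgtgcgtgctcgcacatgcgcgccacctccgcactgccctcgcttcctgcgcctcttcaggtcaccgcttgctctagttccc
POM121C: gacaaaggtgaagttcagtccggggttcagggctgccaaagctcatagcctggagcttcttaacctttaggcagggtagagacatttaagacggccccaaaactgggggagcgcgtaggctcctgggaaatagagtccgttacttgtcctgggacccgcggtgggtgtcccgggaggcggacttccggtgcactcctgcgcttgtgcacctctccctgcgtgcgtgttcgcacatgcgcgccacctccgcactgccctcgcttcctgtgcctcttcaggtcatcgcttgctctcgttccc
NUP205: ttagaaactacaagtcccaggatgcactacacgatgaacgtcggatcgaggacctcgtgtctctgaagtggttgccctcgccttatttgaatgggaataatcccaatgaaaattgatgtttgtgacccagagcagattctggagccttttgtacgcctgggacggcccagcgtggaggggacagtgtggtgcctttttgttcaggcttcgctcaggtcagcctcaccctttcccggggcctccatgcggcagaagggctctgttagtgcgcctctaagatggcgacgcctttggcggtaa
These windows were chr19:49929455-49929754, chr3:13420273-13420572, chr7:72879107-72879406, chr7:75486250-75486549 and chr7:135557667-135557966 in that order. NUP62, NUP210 and POM121C lie on the minus strand and POM121 and NUP205 on the plus strand, and the POM121 window is the first of its 2. The NUP62 window held the motif as C runs and the NUP210 window held it in both forms, while the letters of the motif were not in the other 3 windows. Of all 35116 RefSeq windows of the same length, 25% held the motif on either strand, 14.4% on the strand of the gene and 13.1% on the opposite strand. Of the members, 28 matched a window, AHCTF1 and NUP43 being without one, and 10 of the 28 (35.7%) held the motif in at least 1 window, against 27.9% of all genes with a window. Beside NUP62 and NUP210 these were NUP155, NUP160, NUP188, NUP50, NUP93, NUP98, SEC13 and SEH1L. Of the 10, NUP62 and NUP210 were called lower in labelled RNA at both doses of PDP and the others at neither. POM121 and POM121C, whose windows lacked the motif, were also called lower at both doses. AHCTF1 was called lower at 8 µM but had no window to compare. Over all genes tested, 27.5% were lower at 8 µM and 19.9% at 4 µM. The member windows had a median GC content of 63.7%, against 58.7% over all windows. The match is a description of letters and was not tested as a site.

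The conversion libraries held 6074118 to 17228999 fragments and the PDP libraries 9770956 to 22363992, the 2 PDP-0-RNA libraries being the shallowest of these with 9770956 and 10564894. Of the fragments in genes, 77.3% and 76.6% carried a mismatch in s4U-acrylonitrile-RNA, 13.0% and 10.1% in s4U-RNA, 7.49% and 7.81% in Con-acrylonitrile-RNA, and 7.61% and 7.35% in Con-RNA. All 9 HEK293 marker genes measured were at 1 FPM (fragment per 1000000 fragments of the library) or more in every library. Summed over 12 liver cell markers, the level was 24.8 and 50.8 FPM in s4U-acrylonitrile-RNA, 16.2 and 11.3 FPM in s4U-RNA, 76.5 and 188.3 FPM in Con-acrylonitrile-RNA and 22.4 and 23.7 FPM in Con-RNA, against 0.54 to 1.12 FPM in the PDP libraries, so it moved with acrylonitrile and with s4U in the conversion experiment. Of 10 liver markers tested, 10 rose with acrylonitrile without s4U and 7 with s4U, and 6 fell with s4U in the presence of acrylonitrile (edgeR). Summed over 5 stromal cell markers, the level was 47.7 and 49.8 FPM in s4U-acrylonitrile-RNA, 22.7 and 32.9 FPM in s4U-RNA, 96.4 and 85.9 FPM in Con-acrylonitrile-RNA and 82.2 and 90.4 FPM in Con-RNA, against 52.7 to 59.4 FPM in the PDP libraries, so it was lower with s4U in both arms. Both stromal markers tested, COL1A1 and COL3A1, fell with s4U without acrylonitrile and rose with acrylonitrile in the presence of s4U. For 6 blood cell markers the sum was 0.82 to 2.49 FPM across all libraries. Their part in the results was not tested. As in any bulk sample, a change in the number of cells and a change in RNA per cell cannot be told apart.

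Some members shared fragments with other genes. NUP62, an FG protein of the central channel (ENSG00000213024.6, GRCh37 chr19:50410082-50433020), overlaps IL4I1 and CTC-326K19.6 on its own strand. IL4I1 had 2507 fragments in PDP-0-RNA replicate 1 where NUP62 had 2481, so the signal at this locus cannot be told apart between the genes. POM121 and POM121C are near copies that share a membrane-anchoring role, and RANBP2, the large cytoplasmic filament protein that binds Ran, has near copies in the RGPD genes, so their values depend on how such fragments were assigned. In all, 12 members overlapped another gene on the same strand and 19 on the opposite strand.

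Per length of transcript, the members differed widely in level without s4U or acrylonitrile. In Con-RNA, NUP205, an inner ring scaffold protein, stood at 55.2 ± 0.79 FPKM (FPM per kilobase of transcript; mean ± SD, n = 2 here and for every mean below). The next 3 were NUP62 at 52.8 ± 0.26 FPKM, NUP210, a transmembrane glycoprotein with a large lumenal domain, at 52.7 ± 0.71 FPKM, and SEC13, a Y complex protein that also coats COPII vesicles, at 52.5 ± 1.52 FPKM. These last 3 did not differ beyond their spread. The lowest were NUP107, a core Y complex protein, at 12.02 ± 0.08 FPKM, AHCTF1 (ELYS), which brings the Y complex to chromatin, at 10.7 ± 0.35 FPKM, and NUP37 at 8.42 ± 0.34 FPKM. NUP210L, a NUP210 paralog known mainly from testis, was close to absent at 0.19 ± 0.03 FPKM, from 16 and 12 fragments. In the acrylonitrile-treated PDP-0-RNA libraries the order was another one, with NUP62 at 78.8 ± 4.61, SEC13 at 58.7 ± 0.54, NUP210 at 50.6 ± 0.63, POM121 at 41.8 ± 0.28 and NUP205 at 8.06 ± 0.39 FPKM.

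After 24 h of s4U almost all RNA of nearly every member was marked, and NUP210 was the exception. The member median of the marked share, the percentage of a gene's fragments with at least 1 mismatch in s4U-acrylonitrile-RNA, was 94.0%, beside 91.7% over the 13786 genes that had 20 or more fragments in both libraries. For 25 of 30 members the share was above 90%, as it was for 60.7% of all genes, and for 4 members it was below 85%, as it was for 23.3% of all genes. NUP210 was marked in 49.1% of 1661 and 48.3% of 1303 fragments (95% Wilson intervals 46.7 to 51.5% and 45.6 to 51.0%, which cover counting error only), against 6.76% and 6.18% in Con-acrylonitrile-RNA. Both libraries with s4U lay far above both without, and far below the other members, of which AAAS was next at 74.8%. Only 3.73% of all genes had a lower share.

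**Figure D1:**
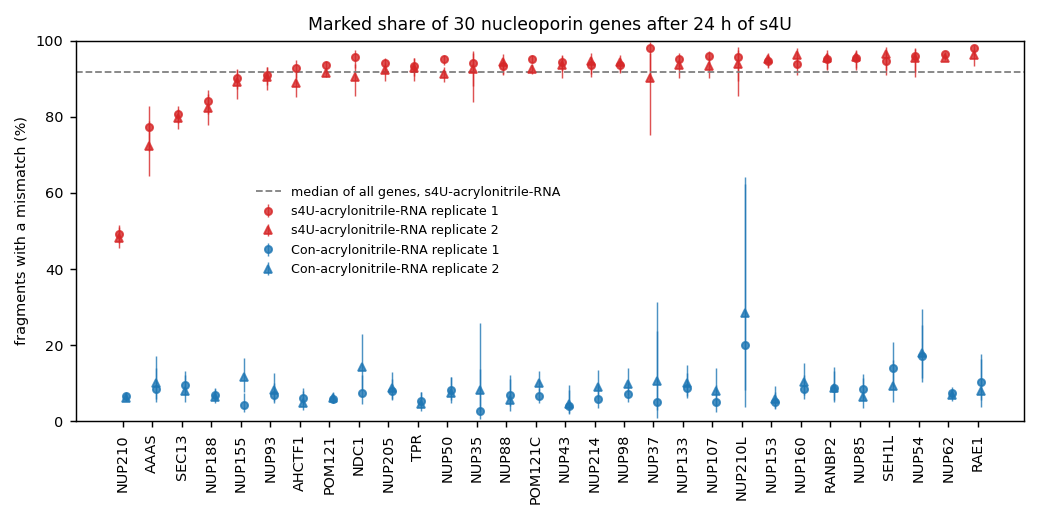
Percentage of fragments with at least 1 mismatch (vertical axis) for each of the 30 nucleoporin genes in the 2 s4U-acrylonitrile-RNA and the 2 Con-acrylonitrile-RNA libraries, with 95% Wilson intervals that cover counting error only; a dashed line marks the all-gene median in s4U-acrylonitrile-RNA, 91.7%. NUP210 lies at 49.1% and 48.3%, below every other member.

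The other low members were AAAS (aladin), a WD-repeat protein of the cytoplasmic face, at 74.8 ± 3.64%, SEC13 at 80.2 ± 0.78% and NUP188, an inner ring scaffold protein, at 83.3 ± 1.34%. These 4 are also among the 7 members of highest level per length in Con-RNA. At the other end stood RAE1, an mRNA export factor that pairs with NUP98, at 97.1 ± 1.31%, NUP62 at 96.1 ± 0.75% and NUP54, its partner in the central channel, at 95.7 ± 0.33%. The near copies POM121 and POM121C were at 92.7 ± 1.48% and 93.9 ± 1.82%, a gap within their spread. Without s4U, acrylonitrile-treated fragments of the members carried a mismatch in 4.3 ± 0.5% (NUP43) to 17.7 ± 0.5% (NUP54) of cases, and in 24.3 ± 6.1% for NUP210L, which rested on 5 and 7 fragments. NUP54 was high in all libraries without conversion, with 15.2% and 15.8% in s4U-RNA and 15.5% and 14.7% in Con-RNA.

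After 1 h of s4U the members spread over a wide range of turnover. Half-lives were computed from the labelled share in PDP-0-RNA as −T ln2 / ln(1 − share) with T of 60 min, which takes every labelled fragment as new RNA. The member median was 3.23 h over 29 members, NUP210L being below 1 FPM, beside 3.17 h over 12811 protein-coding genes with quartiles of 2.04 and 4.71 h. Of the members 13 lay below and 16 above the median of all genes.

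**Figure D2:**
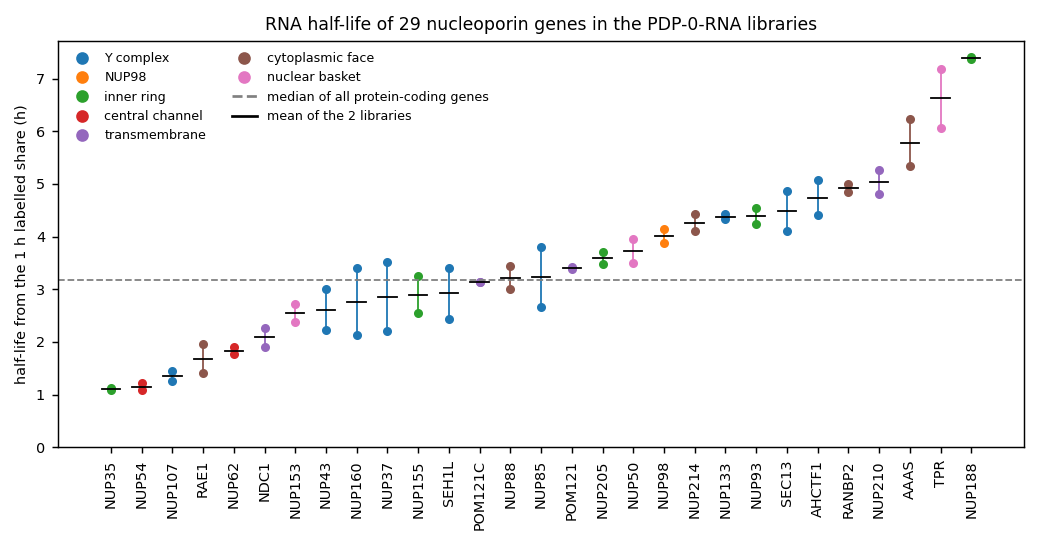
Half-life in h from the 1 h labelled share (vertical axis) for 29 nucleoporin genes, as points for the 2 PDP-0-RNA libraries with a black bar at their mean; a dashed line marks the median over protein-coding genes, 3.17 h. Means run between 1.10 h (NUP35) and 7.39 h (NUP188).

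The shortest half-lives belonged to NUP35, NUP54 and NUP107. NUP35, a membrane-binding protein of the inner ring, had 1.09 and 1.12 h, from 8 of 17 and 12 of 26 fragments, so that its labelled share of 47.1% in replicate 1 had a Wilson interval of 26.2 to 69.0%. NUP54 had 1.08 and 1.21 h, from 61 of 129 fragments in replicate 1. NUP107 had 1.25 and 1.45 h, from 63 of 148. NUP35 and NUP54 could not be ordered within these intervals. All 3 had values below both libraries of NUP62, which had 1.90 and 1.76 h from 758 of 2481 fragments in replicate 1. The NUP35 interval, however, covered the NUP62 labelled shares of 30.6% and 32.5%, so NUP35 and NUP62 could not be ordered by it. Without a background correction, NUP188 had the longest half-life, 7.38 and 7.40 h, from 205 of 2286 fragments in replicate 1. TPR, the coiled-coil protein of the nuclear basket, followed with 7.18 and 6.07 h. AAAS had 5.34 and 6.23 h and NUP210 4.81 and 5.26 h. NUP188 lay above both TPR libraries, whereas TPR and AAAS overlapped. POM121 and POM121C were close, at 3.41 ± 0.03 and 3.14 ± 0.00 h.

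Half-lives varied within the subcomplexes. Without a background correction, the inner ring held both the shortest and the longest value, 1.10 h for NUP35 and 7.39 h for NUP188. Its median was 3.59 h. The Y complex ran over 1.35 to 4.74 h with a median of 2.92 h, the cytoplasmic face over 1.68 h (RAE1) to 5.78 h with a median of 4.26 h, and the basket over 2.55 h (NUP153) to 6.63 h with a median of 3.73 h. Over the 29 members, the half-life and the 24 h marked share had a Spearman correlation of −0.583, and the 1 h labelled share and the U content of the transcript one of 0.517. Both are descriptions over genes measured in the same libraries and carry no p. NUP210 did not hold the same place in both measures, since the same formula gave, from the 24 h share corrected for the Con-acrylonitrile-RNA share as (share − background) / (1 − background), 27.7 h for NUP210, against 13.0 h for AAAS, 10.9 h for SEC13, 9.66 h for NUP188 and 6.31 h for TPR. The formula takes the RNA level as constant during labelling. Over the 24 h of s4U, however, NUP210, NUP188 and TPR were lower and SEC13 higher. Their log2 fold changes with acrylonitrile were −1.11, −1.43, −0.57 and 1.33, while AAAS did not pass. The 24 h values thus cannot be read as plain half-lives. The absolute values also depended on the mismatches present without s4U. With the same correction for the Con-acrylonitrile-RNA share, the member median of the 1 h half-life was 5.27 h, beside 4.82 h over all genes, NUP54 moved to 1.69 h behind NUP107 at 1.54 h, and NUP188 and AAAS reached 27.6 and 33.1 h, their labelled shares being close to that background.

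Growth in s4U for 24 h went with higher levels of many members, above all NUP210L, RAE1, NUP50 and NUP62, and lower levels of NUP210, NUP188 and TPR. Without acrylonitrile, 21 of 30 members passed (edgeR quasi-likelihood test, adjusted p under 0.05), 17 higher and 4 lower, against 35.8% of all 18914 genes tested that were higher and 34.7% that were lower. With acrylonitrile 18 passed, 14 higher and 4 lower, against 33.2% higher and 31.1% lower over all genes. The member shares of lower calls were thus below those of all genes in both comparisons and those of higher calls above. Levels are given as CPM, the count per 1000000 fragments in genes of the library, whereas the fold changes include TMM factors, which moved the median of all genes to 0.02 and 0.05 on the log2 scale, against −0.26 and −0.21 without them. Without TMM the split was 13 higher and 6 lower, and with acrylonitrile 10 higher and 5 lower. Over all 18914 genes it was 5208 higher and 7850 lower, and with acrylonitrile 4789 and 7000.

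The 2 comparisons share no library, though the labels do not say that the arms came from separate cultures. In both, 12 members were higher and 3 lower. These were 71.4% of the members called without acrylonitrile and 83.3% of those called with it. Over all genes the shares called in both in the same direction were 77.5% and 85.1%, so the members did not stand out. NUP210L was at 20.6 and 17.5 CPM in s4U-RNA, against 1.35 and 1.12 CPM in Con-RNA, and at 10.2 and 8.90 CPM in s4U-acrylonitrile-RNA, against 0.91 and 1.68 CPM in Con-acrylonitrile-RNA. The groups were far apart in both arms, and the log2 fold change was 4.22 ± 0.26 (SE; adjusted p = 7.5e-07) without and 3.19 ± 0.34 (adjusted p = 2.5e-05) with acrylonitrile, the Con-acrylonitrile-RNA value resting on 5 and 7 fragments. RAE1 had 112.3 and 153.2 CPM in s4U-RNA, against 47.3 and 46.4 CPM in Con-RNA, with log2 fold changes of 1.78 ± 0.14 (adjusted p = 3.3e-06) and, with acrylonitrile, 1.57 ± 0.16 (adjusted p = 2.4e-05). NUP62 had 390.5 and 512.7 CPM in s4U-RNA, against 195.2 and 196.6 CPM in Con-RNA, and 625.8 and 605.3 CPM in s4U-acrylonitrile-RNA, against 251.9 and 242.0 CPM in Con-acrylonitrile-RNA. Every s4U library of RAE1 and NUP62 lay above every library without s4U of the same arm. The NUP62 fold changes were 1.48 ± 0.13 and 1.58 ± 0.13, and those of NUP50, a basket protein that helps cargo release, were 1.65 ± 0.12 and 1.204 ± 0.12. NUP35 rose by 1.27 ± 0.17 and 0.98 ± 0.23, and SEC13 by 0.99 ± 0.17 and 1.33 ± 0.18. The remaining 6 of the 12 were NUP107, NUP153, NUP43, NUP88, POM121 and POM121C.

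NUP210 fell to 79.7 and 125.7 CPM in s4U-RNA, against 423.1 and 415.1 CPM in Con-RNA, and to 183.0 and 175.7 CPM in s4U-acrylonitrile-RNA, against 455.9 and 474.0 CPM in Con-acrylonitrile-RNA. The log2 fold changes were −1.75 ± 0.17 (adjusted p = 8.8e-06) and −1.11 ± 0.16 (adjusted p = 0.00022). NUP188 fell to 54.8 and 74.97 CPM in s4U-RNA, against 244.3 and 252.6 CPM in Con-RNA, a change of −1.66 ± 0.14 (adjusted p = 4.6e-06), and by 1.43 on the log2 scale with acrylonitrile. The libraries of both genes did not overlap in either arm. These were also the members with the lowest and the fourth lowest marked share at 24 h. TPR fell as well, by 0.83 and 0.57 on the log2 scale, the second of these not passing without Con-acrylonitrile-RNA replicate 1 (adjusted p = 0.06). AAAS passed only in the comparison without acrylonitrile (−0.63 ± 0.12), and its difference between the comparisons did not pass. AHCTF1 had fold changes of opposite sign, −0.42 ± 0.11 with acrylonitrile and 0.44 ± 0.10 without it, and this difference of effects passed (adjusted p = 0.0276 in a test over 18914 genes, of which 1.64% passed). AHCTF1 was at 108.9 and 123.0 CPM in s4U-RNA, against 102.0 and 106.9 CPM in Con-RNA, and at 49.7 and 47.8 CPM in s4U-acrylonitrile-RNA, against 77.6 and 78.3 CPM in Con-acrylonitrile-RNA. Its lower call with acrylonitrile was lost without Con-acrylonitrile-RNA replicate 1 (adjusted p = 0.0506) or replicate 2 (adjusted p = 0.0576) and with no filter on low values (adjusted p = 0.0693). Its higher call without acrylonitrile was lost without TMM (0.15, adjusted p = 0.303), with a GC term in the fit (0.19, adjusted p = 0.128) and without Con-RNA replicate 1 (adjusted p = 0.058).

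**Figure D3:**
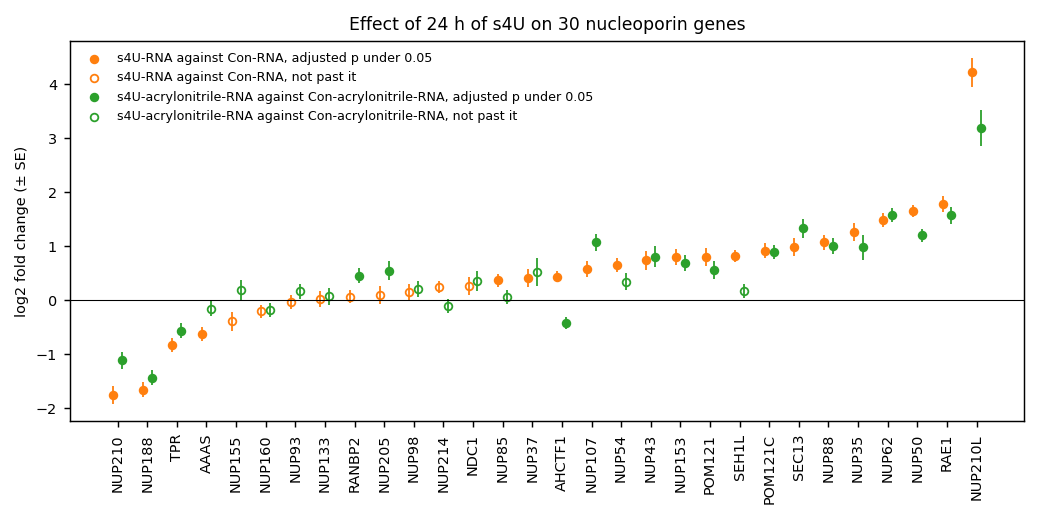
Log2 fold change ± SE (vertical axis) of the 30 nucleoporin genes with 24 h of s4U, with and without acrylonitrile; filled points passed an adjusted p of 0.05 (edgeR quasi-likelihood test) and open points did not. NUP210L is highest at 4.22 and 3.19, NUP210 and NUP188 lowest, and AHCTF1 lies on opposite sides of 0.

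Acrylonitrile treatment, which came after fragmentation of the RNA, went with lower fragment numbers for most members. In the conversion libraries with acrylonitrile, 68.4 to 70.9% of all fragments lay in genes, against 85.8 to 90.6% in those without. The part of this difference in the changes was not tested. Without s4U 26 of 30 members passed, 4 higher and 22 lower, against 29.1% of all genes higher and 30.7% lower, and with s4U 28 passed, 4 higher and 24 lower, against 31% and 34.1%. These comparisons share their libraries with those of s4U above. NUP205 was at 70.2 and 57.9 CPM in Con-acrylonitrile-RNA, against 385.3 and 377.6 CPM in Con-RNA, with no overlap and a change of −2.26 ± 0.18 (adjusted p = 1e-05). RANBP2 (−2.09 ± 0.13) and NUP37 (−2.12 ± 0.22) fell as far without s4U, and NDC1, the transmembrane anchor, fell by 1.64 on the log2 scale. Higher without s4U were POM121 (0.79 ± 0.16), NUP62 (0.65 ± 0.13), NUP210 (0.47 ± 0.16) and POM121C (0.39 ± 0.14), and the NUP210 and POM121C calls were lost on leaving out any 1 of the 4 libraries. Without TMM the median of all genes was −0.39 and −0.37, against −0.07 and −0.08 with it, and the member splits were 1 higher and 24 lower, and 2 higher and 24 lower with s4U. Over all 18914 genes the splits without TMM were 3873 higher and 7472 lower, and 4494 and 7887 with s4U. GC-rich transcripts had higher fold changes, with a Spearman correlation of 0.706 over all genes and 0.739 over the members without s4U, and the members' median GC content was 44.5%. With a smooth term for GC content in the fit, 18 members passed without s4U, 1 higher and 17 lower, and 18 with s4U, all lower. The 1 higher was AHCTF1 (0.77 ± 0.11), while POM121 (0.12), NUP62 (0.14), NUP210 (−0.24) and POM121C (−0.15) no longer passed. Over all 18355 genes with this term, 3035 were higher and 3189 lower without s4U, and 3668 and 4069 with it.

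With 8 µM PDP, labelled RNA of NUP62, POM121, POM121C, NUP210 and AHCTF1 was lower and that of NUP88 and NUP205 higher under the authors' library sizes, and with GC content in the fit only the NUP62 and AHCTF1 calls were kept, of which that of AHCTF1 was not made with TMM factors or DESeq2. Of 29 members tested 7 passed, 2 higher and 5 lower, against 10.3% of all 14124 genes tested that were higher and 27.5% that were lower, so the share of members that fell was below that of all genes. NUP62 had 77.6 and 89.7 labelled FPM in PDP-0-RNA, 64.0 and 57.9 in PDP-4-RNA and 48.5 and 50.5 in PDP-8-RNA. POM121 had 45.4 and 44.5 labelled FPM in PDP-0-RNA, 33.1 and 33.7 in PDP-4-RNA and 29.8 and 29.99 in PDP-8-RNA. For NUP210 the values were 48.5 and 45.4 labelled FPM in PDP-0-RNA, 40.96 and 38.6 in PDP-4-RNA and 31.4 and 33.7 in PDP-8-RNA. In all 3 genes the libraries of the groups did not overlap and ran downward with dose. The log2 fold changes at 8 µM were −0.76 ± 0.07 for NUP62 (edgeR adjusted p = 5.4e-21), −0.59 ± 0.08 for POM121 (adjusted p = 1.9e-10), −0.57 ± 0.10 for POM121C (adjusted p = 1.8e-07), −0.53 ± 0.08 for NUP210 (adjusted p = 4.9e-09) and −0.49 ± 0.16 for AHCTF1 (adjusted p = 0.0096). The 4 genes that fell most are the NUP62 locus and 3 of the transmembrane group, whose median GC content of 56.9% was the highest of the subcomplexes.

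NUP88, which tethers NUP214 on the cytoplasmic face, had 6.57 and 7.02 labelled FPM in PDP-8-RNA, against 4.71 and 4.64 in PDP-0-RNA, and NUP205 had 11.4 and 11.5 labelled FPM in PDP-8-RNA, against 8.90 and 8.80 in PDP-0-RNA. Both sets of libraries were apart, with changes of 0.54 ± 0.19 (edgeR adjusted p = 0.014) and 0.37 ± 0.14 (adjusted p = 0.028). The NUP88 call was lost without PDP-0-RNA replicate 1 or 2 or PDP-8-RNA replicate 2 (adjusted p = 0.0712, 0.0991 and 0.0649), the NUP205 call without any 1 of the 4 libraries, and the AHCTF1 call without PDP-0-RNA replicate 2 (adjusted p = 0.235), with TMM factors (−0.34, adjusted p = 0.074) and with DESeq2 (−0.36, adjusted p = 0.237). The median of all genes was −0.11 under the authors' library sizes and 0.04 with TMM factors, under which 14 members passed, 10 higher and 4 lower, the 4 being NUP62, NUP210, POM121 and POM121C. Over all 14124 genes, 2416 were higher and 2839 lower with TMM factors. Fold changes also ran against GC content, with a Spearman correlation of −0.531 over all genes and −0.633 over the members. With the GC term 2 members passed, AHCTF1 at −0.66 ± 0.15 and NUP62 at −0.44 ± 0.07, while POM121 was at −0.20 ± 0.08 (adjusted p = 0.0567), POM121C at −0.24 ± 0.10 (adjusted p = 0.0633) and NUP210 at −0.12 ± 0.08 (adjusted p = 0.257). Over all 13881 genes with this term, 1340 were higher and 1935 lower.

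**Figure D4:**
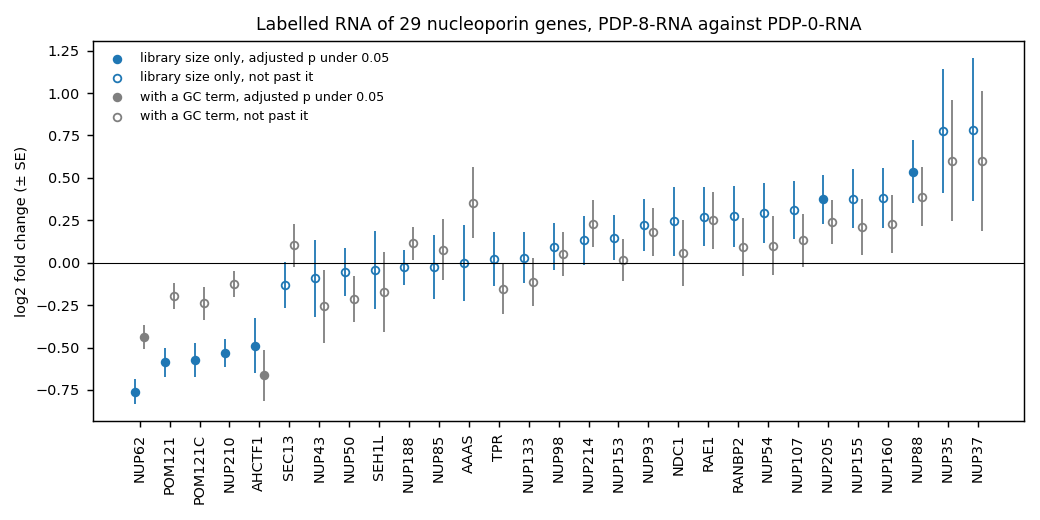
Log2 fold change ± SE (vertical axis) of labelled fragments of 29 nucleoporin genes, PDP-8-RNA against PDP-0-RNA, with the authors' library sizes and with a GC term added; filled points passed an adjusted p of 0.05 and open points did not. NUP62 and AHCTF1 are filled in both, at −0.76 and −0.44 for NUP62.

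At 4 µM, 9 members passed, 5 higher and 4 lower, against 9.24% of all genes higher and 19.9% lower. This comparison shares the PDP-0-RNA libraries with the one above. NUP62 (−0.46 ± 0.07), POM121C (−0.47 ± 0.10), POM121 (−0.43 ± 0.08) and NUP210 (−0.24 ± 0.08) were lower. NUP35 (0.95 ± 0.35), RAE1 (0.53 ± 0.17), RANBP2 (0.51 ± 0.17), NUP205 (0.45 ± 0.14) and NUP214, an FG protein of the cytoplasmic face (0.41 ± 0.14), were higher. Without PDP-0-RNA replicate 1 only 3 members passed, all lower, without PDP-0-RNA replicate 2 there were 4, 1 of them higher, without PDP-4-RNA replicate 1 there were 6 and without its replicate 2 also 6. TMM factors gave 8 higher and 3 lower, DESeq2 gave 1 higher and 3 lower, and the GC term 2 higher and 3 lower. Over all 14124 genes TMM factors gave 1629 higher and 2421 lower and DESeq2 522 and 1533. The GC term gave 923 and 1467 of 13881 genes. Between 8 and 4 µM, NUP62 (−0.30 ± 0.07, edgeR adjusted p = 0.0016) and NUP210 (−0.29 ± 0.08, adjusted p = 0.0068) were lower and no other member passed, against 4.92% lower and 0.701% higher over all genes. Neither call was made with TMM factors, DESeq2 or the GC term, or without PDP-4-RNA replicate 1, and without PDP-8-RNA replicate 1 there was 1.

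Total fragments of most members rose under the authors' library sizes, which count all fragments of a library. Of these, 82.6% and 83.0% lay in genes in PDP-0-RNA, against 86.5 to 89.7% in the libraries with PDP. The part of this difference in the rise was not tested. The paper itself reports that total mRNA did not visibly change with PDP. The members' labelled fragments had median log2 fold changes of 0.095 at 8 µM and 0.13 at 4 µM. Of 29 members, 25 rose at 8 µM and 0 fell, against 51.8% of all 15473 genes that rose and 8.71% that fell, and 25 rose and 0 fell at 4 µM, against 51.4% and 6.99%, the 2 comparisons sharing PDP-0-RNA. No member was lower at an unadjusted p under 0.05 in the edgeR fit either, whereas 4 were lower with DESeq2 at each dose. DESeq2 called 3687 of all 15473 genes lower at 8 µM and 3344 at 4 µM. NUP205 was at 109.5 and 106.9 FPM in PDP-8-RNA, against 52.2 and 48.8 FPM in PDP-0-RNA, and NUP153, an FG protein of the basket, at 90.2 and 92.9 FPM in PDP-8-RNA, against 45.9 and 47.5 FPM in PDP-0-RNA. Neither overlapped, and the log2 fold changes were 1.10 ± 0.07 (adjusted p = 1.9e-14) and 0.97 ± 0.08 (adjusted p = 7.8e-13). NUP35 (1.37 ± 0.23), NUP107 (0.98 ± 0.11), NUP155 (0.97 ± 0.09) and NDC1 (0.94 ± 0.11) rose alike. The exceptions were POM121 (−0.05 ± 0.05), POM121C (−0.03 ± 0.06), AHCTF1 (0.01 ± 0.07) and NUP210 (0.02 ± 0.05), which did not pass and which were among the 5 whose labelled RNA fell. NUP62 was the fifth of these, and its total rose, to 313.6 and 316.1 FPM in PDP-8-RNA, against 253.9 and 275.8 FPM in PDP-0-RNA (0.25 ± 0.05).

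The size of this shift depended on scaling. The median of all genes was 0.33 at 8 µM and 0.32 at 4 µM under the authors' library sizes, against 0.02 and 0.01 with TMM factors, and the member medians were 0.60 and 0.67. Relative to the TMM scale 18 members were higher and 4 lower at 8 µM, and 17 higher and 4 lower at 4 µM. Over all 15473 genes 4143 were higher and 4178 lower at 8 µM on that scale, and 3902 and 4049 at 4 µM. With the GC term 10 members were higher and 6 lower at 8 µM, and 9 higher and 5 lower at 4 µM, and the 6 were AHCTF1 (−0.63), POM121C (−0.21), POM121 (−0.19), NUP50, NUP188 and NUP210, of which NUP50 and NUP188 had been higher without it. Over all 15149 genes with the GC term, 2248 were higher and 3659 lower at 8 µM, and 2214 and 3383 at 4 µM. NUP205, NUP153 and NUP35 were among those that kept a higher call at both doses with TMM factors, with DESeq2 and with the GC term. With the GC term NUP98, NUP155, NUP214, AAAS and RAE1 also stayed higher at both doses.

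The labelled share was lower with PDP, also for members whose labelled fragments did not fall. The member median of this share, the percentage of a gene's fragments that were labelled, was 19.4% in PDP-0-RNA, 13.9% in PDP-4-RNA and 13.2% in PDP-8-RNA. Over all genes it was 21.7%, 16.8% and 16.0%. NUP153, NUP107, NUP54 and NDC1 had labelled log2 fold changes of 0.15, 0.31, 0.29 and 0.24 at 8 µM, none of which passed. At 8 µM, 24 of 29 members were lower and 0 higher, against 54% of all genes lower and 0.637% higher, and at 4 µM, 20 were lower and 0 higher, against 45.9% and 0.262%. The median change in the log2 ratio of labelled to unlabelled fragments was nearly alike, −0.62 for members and −0.58 over all genes at 8 µM. At 4 µM it was −0.50 and −0.48. No member was higher at an unadjusted p under 0.05, nor with limma on the logit of the share. NUP62 was labelled in 30.6% and 32.5% of its fragments in PDP-0-RNA, 19.4% and 18.4% in PDP-4-RNA and 15.5% and 16.0% in PDP-8-RNA. NUP107 was labelled in 42.6% and 38.1% in PDP-0-RNA, 23.6% and 21.2% in PDP-4-RNA and 23.9% and 26.6% in PDP-8-RNA. No library of either gene with PDP reached the lowest one without it, but only for NUP62 did the 8 µM libraries lie below those at 4 µM. On the log2 scale of the ratio of labelled to unlabelled fragments the changes at 8 µM were −1.31 ± 0.07 for NUP62 (edgeR adjusted p = 1.1e-38), −1.01 ± 0.25 for NUP43, −1.01 ± 0.14 for NUP153, −0.997 ± 0.21 for NUP107, −0.97 ± 0.22 for NUP54 and −0.91 ± 0.23 for NDC1. NUP35, AAAS, SEH1L, NUP88 and NUP37 did not pass at 8 µM. Without PDP-0-RNA replicate 2 the counts were 14 at 8 µM and 13 at 4 µM.

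**Figure D5:**
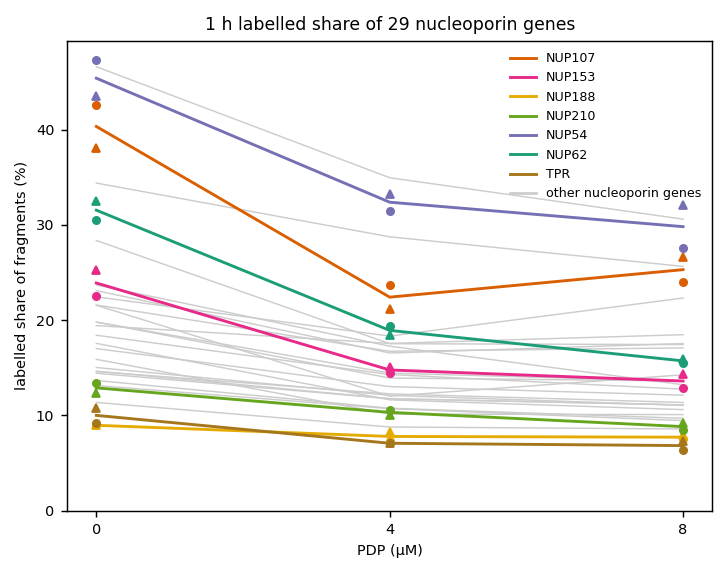
Labelled percentage of fragments (vertical axis) of 29 nucleoporin genes against the PDP dose in µM, as lines through the means of 2 libraries, with points for the libraries of the genes named in colour. NUP62 lies at 30.6% and 32.5% without PDP, 19.4% and 18.4% at 4 µM and 15.5% and 16.0% at 8 µM.

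No member met the study's rule for transcripts lowered by PDP, as rebuilt here, which asks for at least 1 FPKM, labelled FPKM of at least 1 in PDP-0-RNA and a labelled level at least 1.5-fold lower at both doses in both replicates. Of 19837 protein-coding genes 663 met it (3.34%). With a limit of 1.3-fold POM121 met it, with 8 µM alone NUP62 did, without replicate 1 NUP62 and POM121C did, and without replicate 2 the count was 0. In the 4000 bases downstream of the gene, where fragments mark transcripts that run past their end, only POM121C had both a window free of other genes on its strand and a mean of 0.5 FPM or more, and was tested. It had 7 and 8 fragments in PDP-0-RNA, 18 and 12 in PDP-4-RNA and 26 and 17 in PDP-8-RNA, in libraries of unequal depth, and the log2 fold change of 0.51 ± 0.42 did not pass (edgeR adjusted p = 0.39). Thus 0 of 1 member was called, also at an unadjusted p under 0.05 and with DESeq2 and limma, against 24.7% of 558 genes. The study's criteria for downstream signal were also rebuilt here, from gene-level counts. With 1 transcript a gene, they asked for at least 1 FPKM and a total level within 1.2-fold. Downstream FPKM had to be at least 0.2 with PDP and at least 1.5-fold higher, at both doses in both replicates. These limits were met by 0 members and 10 of 15451 genes (0.0647%). The published list is far longer, so the rebuild did not reproduce it. Left out were 9 members, for a window that overlaps another gene. Total levels of most members rose by more than 1.2-fold and downstream fragments were few, so few members could meet these limits. The 0 thus says little about downstream signal of the members. In the window upstream of the gene 5 members were tested, under the 2 conditions set for the test of POM121C, and NUP85 passed at 8 µM, against 34.3% of 1831 genes.

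The partners of the pore were described alongside. Among 11 pore and envelope proteins outside the rule, 3 were higher and 4 lower with s4U and no acrylonitrile, 12 and 6 of 26 importins and exportins, and 18 and 3 of 25 genes of the Ran cycle and mRNA export, with medians of 0.04, 0.15 and 0.63 on the log2 scale, beside 0.02 over all genes. Over all genes 35.8% were higher and 34.7% lower. NXF1, the main mRNA exporter, rose by 2.15 ± 0.13 and KPNA2 (importin alpha 1) by 1.69 ± 0.15, against 2.70 ± 0.14 and 2.18 ± 0.16 in the comparison with acrylonitrile. IPO8 fell by 0.91 and 0.95 on the log2 scale. For labelled RNA at 8 µM of PDP the counts were 1 higher and 3 lower of 11, 3 and 5 of 26, and 2 and 12 of 24, with medians of 0.00, −0.09 and −0.27, beside −0.11 over all genes. Over all genes 10.3% were higher and 27.5% lower. NXT1, the partner of NXF1, was at −0.88 ± 0.15, the export adaptor ALYREF at −0.84 ± 0.09 and lamin B2 (LMNB2) at −0.79 ± 0.06. Genes of these lists were described from the main fits only, without the alternative scalings or the GC term. Half-lives had medians of 4.33 h, 3.68 h and 3.59 h in the 3 lists, beside 3.23 h for the members.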

How the data were processed

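Polyadenylated RNA was fragmented, treated or not with acrylonitrile, and sequenced in pairs from directional libraries. Per the study's methods, the authors trimmed reads with cutadapt 1.18, removed identical pairs and ribosomal reads, aligned to GRCh37 with HISAT2 2.1.0, kept unique proper pairs, excluded known SNPs and mismatches at base quality under 41, and assigned fragments to GENCODE 19 genes. No source used here gives the counting tool. The authors deposited fragment counts per gene and mismatch class for 8 conversion libraries, and, for 6 PDP libraries, counts of total, labelled and window fragments. The authors also deposited these as FPM, an RPM value of fragments scaled by each library's total, and a half-life per gene from the PDP-0-RNA counts, which was recomputed here. The class of mismatch is not named in the tables and was read as T-to-C.

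Members and lists were chosen with earlier results of these data known. Counts were tested with edgeR 4.0.16 (quasi-likelihood, Benjamini-Hochberg over all genes, threshold 0.05) in R 4.3.3, in 12 comparisons of 2 against 2 libraries. Conversion fits used TMM and filterByExpr over 4 groups. PDP fits used the authors' library totals and mean minimums of 1 total FPM, 0.5 labelled FPM and 0.5 downstream FPM. The labelled share was tested as an interaction of labelled or unlabelled counts with dose. Lengths, U and GC content came from 1 GENCODE 44 transcript a gene on GRCh37. Statistics are given for up to 6 members passing in each direction. Alternatives were other scalings, DESeq2 1.42.0, limma 3.58.1 on log2(FPM + 0.1) and log2(FPM + 1), no filter, each library left out, a replicate block, and a GC term (spline with 6 degrees of freedom, added for PDP after seeing the data). The scripts were tested on simulated data.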

Additional observations from a re-analysis of the deposited data

Results flagged for a closer look

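The s4U effect of AHCTF1 differed between the arms of the conversion experiment, being lower with acrylonitrile than without it by a log2 difference of −0.8532 (SE 0.15, adjusted p = 0.0276, edgeR interaction test). It was the 1 member of 30 to pass, beside 310 of 18914 genes.

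Fragments in the window upstream of the gene, which lie outside the main comparisons, were higher for NUP85 in PDP-8-RNA than in PDP-0-RNA, with a log2 fold change of 2.164 (SE 0.65, adjusted p = 0.00413, edgeR). NUP85, a Y complex scaffold gene, had 2 and 2 such fragments in PDP-0-RNA, 10 and 18 in PDP-4-RNA (adjusted p = 0.0655) and 24 and 13 in PDP-8-RNA. It was 1 of 5 members tested, those with a window free of other genes on their strand and a mean of 0.5 FPM or more, beside 628 of 1831 genes (34.3%). Groups of 2 libraries were too small to test a library against its group.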

How the results depend on the processing

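Leaving out a library, the member counts ranged over 5 to 7 (labelled, 8 against 0 µM), 3 to 6 (labelled, 4 against 0), 0 to 3 (labelled, 8 against 4), 24 to 26 (total, 8 against 0), 24 to 25 (total, 4 against 0), 14 to 24 (share, 8 against 0), 13 to 19 (share, 4 against 0), 24 (acrylonitrile without s4U), 25 to 28 (with s4U), 18 to 23 (s4U without acrylonitrile) and 15 to 22 (with it), and 0 throughout for downstream fragments. The rule for lowered transcripts gave 0 to 2 members and 1 each with a 1.3-fold limit or 8 µM alone. The member median of the 24 h marked share was 82.4% with at least 2 mismatches and 85.8% with background subtracted, and 93.2 to 94.3% leaving out a library. The median half-life was 5.27 h with the background correction and 3.24 to 3.50 h leaving out a library. TMM factors gave 14, 11 and 0 labelled calls (8 against 0, 4 against 0, 8 against 4), DESeq2 6, 4 and 0, and the GC term 2, 5 and 0, with or without the replicate block. With the GC term total calls were 16 and 14 (15 and 14 with the replicate block), and acrylonitrile calls with s4U 18. The replicate block alone changed no member call. Replicate numbers did not pair the libraries, with correlations of −0.03 to 0.04.

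Of 853 alternatives of 83 named values, 741 kept direction and side of the threshold, 102 lost the call and 10 reversed, all under the GC term (second value with the replicate block): NUP210 labelled at 4 µM (0.0154, 0.0151), NUP210 (−0.2435, −0.2445) and POM121C (−0.1498, −0.1503) under acrylonitrile without s4U, and POM121 (−0.2196, −0.2134) and POM121C (−0.2717, −0.269) with s4U. The cause was not tested. Depth limits NUP210L, NUP35 and NUP37 with under 40 fragments in some libraries.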
